A study of Mus musculus with 8 samples.

Results

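The comparison described here is the genotype difference in mouse CD8+ T cells after 48 h of activation in culture. It was made by choosing the 4 libraries labelled 48 h out of the 8 of the study, 2 of wild-type cells (WT) and 2 of cells labelled dKO (genotype NR4aDKO). The labels describe WT cells as coming from wild-type littermates, and dKO cells as coming from mice with Cd8Cre and floxed Nr4a1 and Nr4a2 alleles, in which Cre under Cd8 control acts on both genes. In all groups naive CD8+ T cells were stimulated with antibodies against CD3 and CD28 in the presence of IL2, and total RNA was sequenced in bulk. The other 4 libraries, WT and dKO at 24 h, with 2 of each, entered the same model and are used below as the earlier time point. The labels used here do not give the age of the mice, or say whether replicates came from separate mice, so p-values measure only the spread between these libraries. In bulk RNA, a lower level can mean fewer cells with the transcript or less of it per cell, and these cannot be told apart.

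NR4A1, NR4A2 and NR4A3 are orphan nuclear receptors whose genes are induced quickly by T cell receptor signals. They bind DNA at a short element named NBRE and are known for restraining T cell activation and for supporting exhaustion in T cells that meet antigen for long. A CD8+ T cell that has been stimulated for a few days divides, secretes cytokines such as IL-2 and interferon gamma, loads granules with granzymes, and lowers homing receptors of the naive state.

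Some measurements of the libraries moved with the groups and bear on everything that follows. Total counts at 48 h were 7018314 and 21686236 for WT against 6954913 and 7911611 for dKO. A count of 0 allows up to 3 counts, or 0.138 to 0.431 CPM (counts scaled to a library of 1e6 counts), which covers counting error only. The WT replicates were further apart than the dKO replicates, with a median absolute log2 difference per gene of 0.364 against 0.149. Ribosomal protein genes took 10.98% and 7.04% of the counts for WT against 13.4% and 13.1% for dKO. Xist, transcribed from the inactive X chromosome, stood at 323 and 716 CPM in WT and at 0.72 and 0.88 CPM in dKO, while the sum of 4 Y-linked genes was 1.28 and 1.75 CPM in WT and 137 and 131 CPM in dKO. Genotype and sex type cannot be told apart in these libraries, and the genes described below are autosomal for that reason. This takes out the X and Y genes only. For the autosomal genes below, genotype and sex type still cannot be told apart. Summed CD8 T cell markers (Cd8a, Cd8b1, Cd3d, Cd3e and Cd3g) stood at 1077 to 1327 CPM in WT and 1603 to 1667 CPM in dKO, over total counts. The TMM scaling factors used for single genes were 0.836 and 0.878 in WT and 0.968 and 0.975 in dKO at 48 h. With them the gap in this sum is narrower. Cd4, the B cell genes Cd79a and Ms4a1 and the myeloid genes Lyz2, S100a8 and S100a9 were at 0 to 0.09 CPM. Other markers of such cells were not. Myeloid Cd14 stood at 10.3 and 8.76 CPM in WT and 4.74 and 4.42 CPM in dKO. The B cell gene Cd79b was at 2.71 and 3.97 against 3.45 and 4.55 CPM, and Foxp3 at 2.42 and 2.54 against 1.29 and 2.40 CPM. Sums over the marker lists are given below.

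Neither targeted gene was called lower, so the counts do not check the deletion. Nr4a1 (chromosome 15, 101254269 to 101274795, GRCm38) stood at 881 and 779 CPM in WT and at 635 and 669 CPM in dKO, so that both dKO libraries lay below both WT libraries. The log2 difference of -0.35 (SE 0.264) was not called (adjusted p = 0.38) and stayed between -0.43 and -0.16 in the alternatives. Nr4a2 (chromosome 2, 57106830 to 57124003) stood at 24.6 and 33.2 CPM in WT and at 75.5 and 77.3 CPM in dKO. Both dKO libraries were thus higher, with a log2 fold change of 1.38 (SE 0.176, adjusted p = 0.00982). This call was lost when either dKO library of 48 h was left out, where the highest adjusted p was 0.149. Nr4a3, which was not targeted, was at 55.35 and 122 CPM in WT and 69.4 and 64.3 CPM in dKO, and the groups overlapped (log2 -0.42, adjusted p = 0.329; 0.28 without WT 48 h replicate 2). Which exons Cre removes (not given in the sources used here) matters here, since a floxed allele can keep transcribed exons. All directions refer to the labels, and dKO below stands for libraries labelled so.

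At 48 h, 1430 of 12742 tested genes were called at a Benjamini-Hochberg adjusted p below 0.05 (11.2%), of which 406 were higher in dKO (3.19%) and 1024 lower (8.04%). A gene counts as changed below when it was called, autosomal, had both libraries of one group above both of the other, and had a mean of at least 20 counts. Of the 10759 autosomal genes with such a mean, here named eligible, 372 rose (3.46%) and 895 fell (8.32%) in dKO, or 11.8% together. The rise had a median of 0.72 on the log2 scale, with 69 genes over 2-fold and 15 over 4-fold. The median of the genes that fell was -1.12, with 677 over 2-fold and 38 over 4-fold. Libraries of the groups did not overlap in 6255 eligible genes (58.1%), 3280 higher (30.5%) and 2975 lower (27.7%), so separation alone was common. No autosomal call came from overlapping groups: among 1329 called autosomal genes 0 overlapped, and 62 were separated but had fewer than 20 counts on average. Just above that limit stood Wscd2 and Sept8 (mean 20 counts, log2 -2.03 and -1.68, with Wscd2 at -2.84 when dKO 48 h replicate 1 was omitted), and just below it Cyp2d10 and Mirt1 (means 19.75 and 19.5, log2 -1.48 and -1.60).

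These counts depend on single libraries and on the scaling. Without dKO 48 h replicate 1, 10 genes rose and 1 fell, and for replicate 2 the counts were 8 and 0. Omitting WT 48 h replicate 1 gave 2879 that rose and 2974 that fell, and omitting replicate 2 gave 273 and 716. The libraries at 24 h, which entered the same fit, also changed the counts: 148 and 638 genes rose and fell when the first WT library of 24 h was omitted, 135 and 641 for the second, 71 and 386 for the first dKO library of 24 h, and 69 and 368 for the second. In all, 222 of the genes that rose and 582 of those that fell also did so when either WT library of 48 h was omitted. Scaling by library size alone, which moved the median of all tested genes from -0.03 to 0.15, turned the split from 29.4% higher into 66.2% higher (1527 rose and 781 fell). The 8 genes that rose whichever dKO library of 48 h was omitted were Il3, Ccl1, Ctse, Ly6c1, Ly6c2, Atp6v0c-ps2 and the predicted genes Gm5779 and 4933404O12Rik. This subset was picked by its values.

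**Figure D1:**
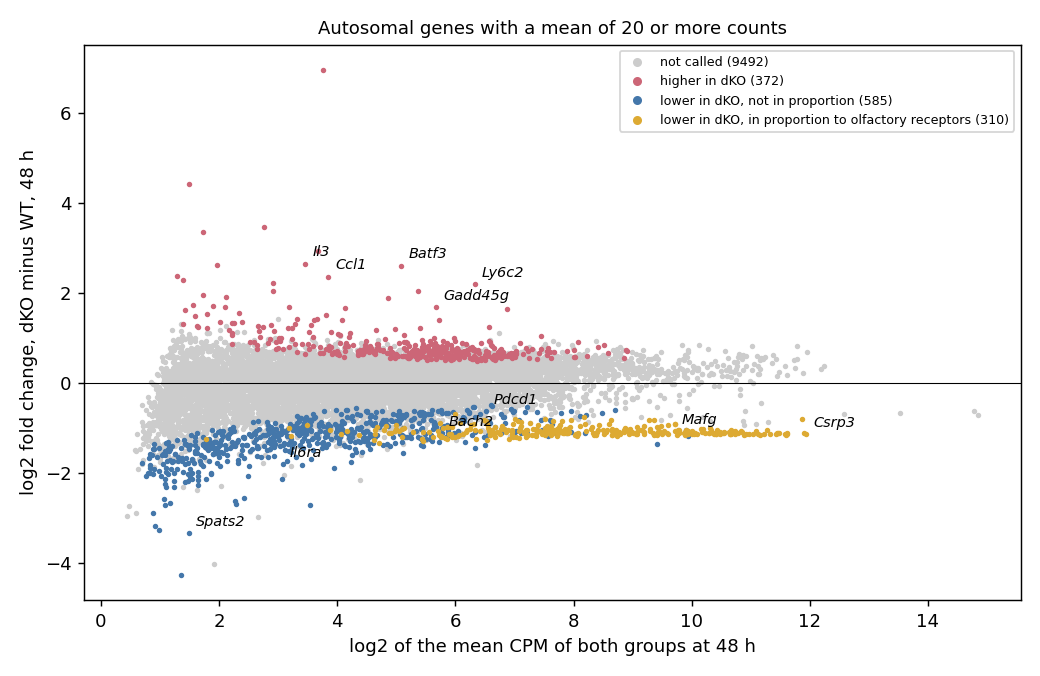
Log2 fold change of the eligible autosomal genes at 48 h (dKO minus WT, vertical) against the log2 of their mean CPM (horizontal), 1 point per gene. Red points are the 372 genes that rose, blue points 585 that fell and yellow points 310 that fell and kept a fixed ratio to olfactory receptor counts. The yellow points form a narrow band near -1.10 most of which lies between 4 and 12 on the horizontal axis.

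Among the 895 genes that fell, 310 kept a nearly fixed ratio to genes that have no known part in T cells. Olfactory receptor genes, which encode odorant receptors of the nose, were taken as a reference after the data had been seen. Their summed level over 56 symbols was 2195 and 2385 CPM in WT and 1315 and 1271 CPM in dKO at 48 h, and 1012 to 1411 CPM in the 4 libraries at 24 h. The WT 48 h libraries thus stood above the other 6. Of 12 tested olfactory receptor genes 9 fell, 0 rose, and the median was -1.13. A gene was called in proportion when its log2 ratio to this sum had a range of at most 0.5 over the 8 libraries. Of 311 eligible genes in proportion, 310 fell and 0 rose. They were chosen by levels that include the 48 h libraries, so these counts are a description. Their log2 differences lay between -1.34 and -0.70 (median -1.10) at 48 h and had a median of -0.29 at 24 h. Together the genes in proportion took 22.1% and 23.3% of all WT counts at 48 h, 12.3% and 11.8% of those of dKO and 8.397% to 12.1% at 24 h. Every gene that rose had a ratio range of at least 1.62, which follows largely from the definition. The olfactory receptor sum was lower in dKO at 48 h, so a gene that rose there cannot keep a fixed ratio to it.

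Genes known from muscle, sperm and neurons were among those in proportion, and the following examples were picked after their values were seen. Csrp3, which encodes a muscle LIM protein, stood at 5509 and 5322 CPM in WT and at 2498 and 2405 CPM in dKO. Tnp2, which encodes a protein that packs DNA in maturing sperm, stood at 3884 and 3687 CPM in WT and 1758 and 1681 CPM in dKO, whereas the sperm protamine genes Prm1 and Prm2 were at 0 to 0.09 CPM in all 4 libraries. Chrnb3, a subunit of the neuronal acetylcholine receptor, stood at 3205 and 3109 CPM in WT and 1446 and 1389 CPM in dKO. The skeletal actin gene Acta1, also known from muscle, was not in this group, at 48.7 and 71.3 CPM in WT and 64.3 and 79.4 CPM in dKO, and was not called (log2 0.25, adjusted p = 0.383). Omp, the marker of mature olfactory neurons, stood at 798 and 822 CPM against 375 and 354 CPM. In Csrp3, Tnp2, Chrnb3 and Omp the WT libraries were close to each other and more than 2-fold above both dKO libraries.

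Genes known from T cells or from every cell were also in proportion. Mafg, which encodes a small MAF factor, stood at 1148 and 1132 CPM in WT and at 542 and 533 CPM in dKO. Pdia4, an endoplasmic reticulum chaperone, stood at 2525 and 2448 CPM against 1182 and 1172 CPM. Ccne1, which encodes cyclin E1, stood at 491 and 525 CPM against 290 and 284 CPM. Ccl5 and Ccl20, both chemokines, stood at 136 and 157 against 77.6 and 72.1 CPM and at 297 and 332 against 154 and 135 CPM. The S phase licensing gene Cdt1, at 235 and 265 CPM in WT and 145 and 136 CPM in dKO, lay just outside the limit. Where the counts of these genes come from was not tested.

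**Figure D2:**
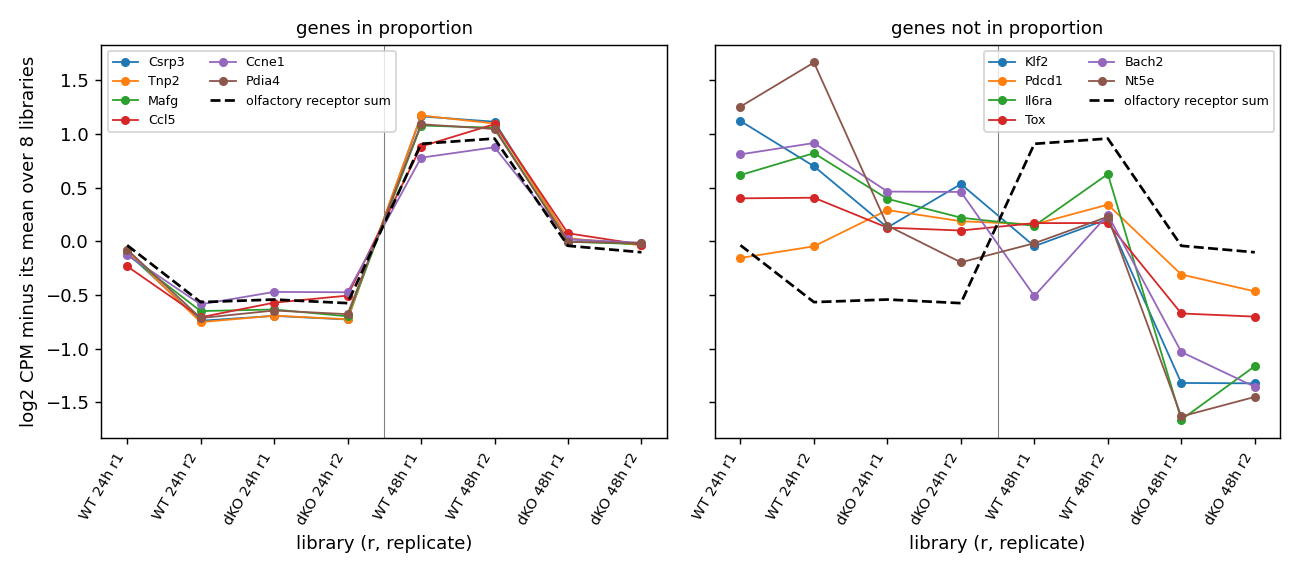
Log2 CPM minus the gene's own mean over the 8 libraries (vertical) in each library (horizontal), for 6 genes in proportion (left) and 6 that fell without being in proportion (right), with the summed olfactory receptor genes as a dashed line. On the left all curves rise in the 2 WT libraries at 48 h with the dashed line, and on the right the 6 genes have other courses.

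The other 585 genes that fell were not in proportion (median -1.18). When these 311 genes and the others in proportion were left out before scaling and testing, an alternative added after the data had been seen, 222 genes rose and 430 fell. The share that fell differed with the level of a gene at 24 h and was higher at both ends of the range. The libraries at 24 h are outside the 48 h contrast but entered the same fit, so these levels are not independent of the calls. Of 349 eligible genes under 2 CPM at 24 h, 18.9% fell and 2.29% rose, while among 1445 genes at 50 to 100 CPM 6.37% fell and 7.06% rose, and among 1461 genes over 100 CPM 14.4% fell and 3.56% rose. Most of the 15 largest decreases were of genes with few counts, such as the following. Lgi1, Grm4, Kcnh1, Pou3f2 and Celf4, known from neurons, stood at 2.79 to 5.74 CPM in WT and at 0.13 to 1.64 CPM in dKO. Their mean of 20 counts rests in part on WT 48 h replicate 2, the deepest library. Parvb stood at 2.22 and 14.3 CPM in WT, and its log2 difference of -2.63 shrank to -0.60 when the second, WT 48 h replicate 2, was omitted and became -3.30 without replicate 1.

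Genes of secreted and surface ligands were among those that rose. Of 18 eligible interleukin, growth factor, interferon and TNF family genes, 7 rose and 0 fell, against 3.46% and 8.32% of all eligible genes, with a median log2 difference of 0.73 against -0.00062. They are Il3, Csf2, Il2, Lta, Ltb, Tnfsf10 and Tnfsf14. The count was 12 with WT 48 h replicate 1 omitted, but 1, Il3 alone, with either dKO library of 48 h omitted. The list was assembled with earlier results of these data known, so its count is no independent evidence. Counts of every list below stand against the same shares of all eligible genes, and several are near or under them.

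The bases before the start sites of the genes with the largest rises among ligands, factors and Ly6 antigens are shown because they rose together and because NR4A receptors, AP-1 and NFAT are all known to act at such promoters. They run 5′ to 3′ on the strand of the gene, 250 bases up to the start site in RefSeq (GRCm38.p6), and lie at chr11:54267280-54267529 (Il3, minus strand), chr11:54249900-54250149 (Csf2, minus), chr3:37125955-37126204 (Il2, minus), chr11:82179813-82180062 (Ccl1, minus), chr1:191098164-191098413 (Batf3, plus) and chr15:75111972-75112221 (Ly6c2, minus). Capitals mark matches, on either strand, to the NFAT core GGAAA, the AP-1 element TGANTCA or the NBRE AAAGGTCA.
Il3: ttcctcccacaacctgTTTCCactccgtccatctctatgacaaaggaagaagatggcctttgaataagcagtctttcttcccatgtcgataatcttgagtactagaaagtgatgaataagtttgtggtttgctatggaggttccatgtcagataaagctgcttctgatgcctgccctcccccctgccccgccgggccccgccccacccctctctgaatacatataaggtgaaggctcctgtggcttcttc
Csf2: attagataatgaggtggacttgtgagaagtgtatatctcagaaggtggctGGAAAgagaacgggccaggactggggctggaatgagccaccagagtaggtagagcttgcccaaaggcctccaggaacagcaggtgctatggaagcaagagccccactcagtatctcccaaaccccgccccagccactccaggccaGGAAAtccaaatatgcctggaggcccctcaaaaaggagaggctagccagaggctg
Il2: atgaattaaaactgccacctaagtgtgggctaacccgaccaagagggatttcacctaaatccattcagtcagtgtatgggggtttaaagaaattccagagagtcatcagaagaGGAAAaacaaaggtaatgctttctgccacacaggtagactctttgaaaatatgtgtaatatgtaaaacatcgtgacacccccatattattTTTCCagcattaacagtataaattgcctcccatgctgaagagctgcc
Ccl1: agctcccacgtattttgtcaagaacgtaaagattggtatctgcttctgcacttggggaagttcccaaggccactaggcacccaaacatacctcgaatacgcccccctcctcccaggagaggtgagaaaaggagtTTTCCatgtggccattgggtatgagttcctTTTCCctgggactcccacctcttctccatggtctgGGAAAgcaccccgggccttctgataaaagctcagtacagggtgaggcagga
Batf3: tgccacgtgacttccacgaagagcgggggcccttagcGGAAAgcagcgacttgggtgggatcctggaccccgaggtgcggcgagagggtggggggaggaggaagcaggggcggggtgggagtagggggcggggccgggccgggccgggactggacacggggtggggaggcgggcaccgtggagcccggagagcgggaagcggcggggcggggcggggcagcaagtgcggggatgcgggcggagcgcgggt
Ly6c2: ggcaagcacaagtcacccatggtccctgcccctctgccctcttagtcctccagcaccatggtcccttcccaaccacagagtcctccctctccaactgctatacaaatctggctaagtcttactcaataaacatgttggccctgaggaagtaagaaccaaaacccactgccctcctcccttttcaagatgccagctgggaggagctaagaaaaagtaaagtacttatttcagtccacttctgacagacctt
All capitals shown are NFAT core letters, in 1 place in Il3, 2 in Csf2, 2 in Il2, 3 in Ccl1, 1 in Batf3 and 0 in Ly6c2. There was no NBRE and no AP-1 match in these 6 windows, which says only that these letters are not in them. Over all 27025 promoter entries of the same length, 55.58% hold the NFAT core, 6.868% the AP-1 element and 1.31% the NBRE. A match is a description of letters, not of binding. The windows follow 1 RefSeq start per gene, and other starts can exist. In GENCODE M21 the minus-strand genes Csf2 and Ccl1 reach 54249667 and 82305690, and Batf3 on the plus strand begins at 191097847. The Csf2 window thus lies apart from that gene end, and the Ccl1 and Batf3 windows lie inside the annotated genes. For Ly6c2, 2 starts are listed and the first was used.

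Il3 encodes interleukin 3, a growth factor for blood progenitors and mast cells that activated T cells secrete. It stood at 4.27 and 2.32 CPM in WT and at 20.99 and 16.4 CPM in dKO, so that every dKO library was above every WT library. The log2 fold change was 2.64 (SE 0.281, adjusted p = 0.00264), and Il3 stayed called in all 16 alternatives. Csf2, which encodes GM-CSF and whose annotated gene lies 18.03 kb from Il3 on chromosome 11, stood at 2.22 and 0.53 CPM in WT and at 6.997 and 5.85 CPM in dKO (log2 2.61, SE 0.488, adjusted p = 0.0152). The Csf2 difference became 3.55 on the log2 scale when WT 48 h replicate 1 was omitted and 1.53 when replicate 2 was. Il2, the growth factor of T cells that was also added to these cultures as protein, stood at 4.27 and 1.74 CPM against 12.6 and 11.4 CPM (log2 2.22, SE 0.333, adjusted p = 0.0136), and its log2 difference was 1.497 with WT 48 h replicate 2 omitted. The calls of the gene Csf2 (adjusted p = 0.137 and 0.191) and the gene Il2 (0.137 and 0.172) were lost with the first or second dKO library of 48 h omitted, and in a fit of the 48 h libraries alone (0.0885 and 0.0517). For all 3 cytokines WT replicate 1 was above WT replicate 2, and both were far below the dKO libraries.

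The TNF family ligands that rose did so by log2 differences of 0.71 to 1.03. Lta, which encodes lymphotoxin alpha, stood at 270 and 256 CPM in WT and 487.5 and 452 CPM in dKO (log2 0.84, SE 0.153, adjusted p = 0.0147). Its partner Ltb stood at 138 and 93.3 CPM against 232 and 236 CPM. All dKO values of both genes lay above the WT values. Tnfsf10, the death ligand TRAIL, stood at 14.9 and 16.1 CPM against 26.5 and 24.3 CPM, and Tnfsf14, the ligand LIGHT, at 10.9 and 8.37 against 18.9 and 13.9 CPM. Ifng, which encodes interferon gamma, was at 489 and 347 CPM in WT and at 619 and 683 CPM in dKO without passing the test (log2 0.64, SE 0.2, adjusted p = 0.0664). Tnf was at 46.1 and 28.8 against 50.8 and 52.6 CPM and was not called (0.49, adjusted p = 0.131).

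Among 7 eligible chemokine genes 2 rose and 2 fell. Ccl1, the ligand of CCR8, stood at 4.61 and 4.74 CPM in WT and at 26.05 and 22.1 CPM in dKO (log2 2.35, SE 0.169, adjusted p = 0.000236). It was called in all 16 alternatives. Ccl9 stood at 4.61 and 4.11 CPM against 14.7 and 12.7 CPM (log2 1.67, SE 0.228, adjusted p = 0.0122). The 2 that fell were Ccl5 and Ccl20, which are in proportion to the olfactory receptor counts as given above. The inflammatory chemokine genes Ccl3 and Ccl4 were not called, at 523 and 377 against 639 and 634 CPM and at 548 and 370 against 655 and 625 CPM. Ccl1 alone of this list rose, and 0 fell, with either dKO library of 48 h omitted, and 4 rose and 2 fell with WT 48 h replicate 1 omitted.

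**Figure D3:**
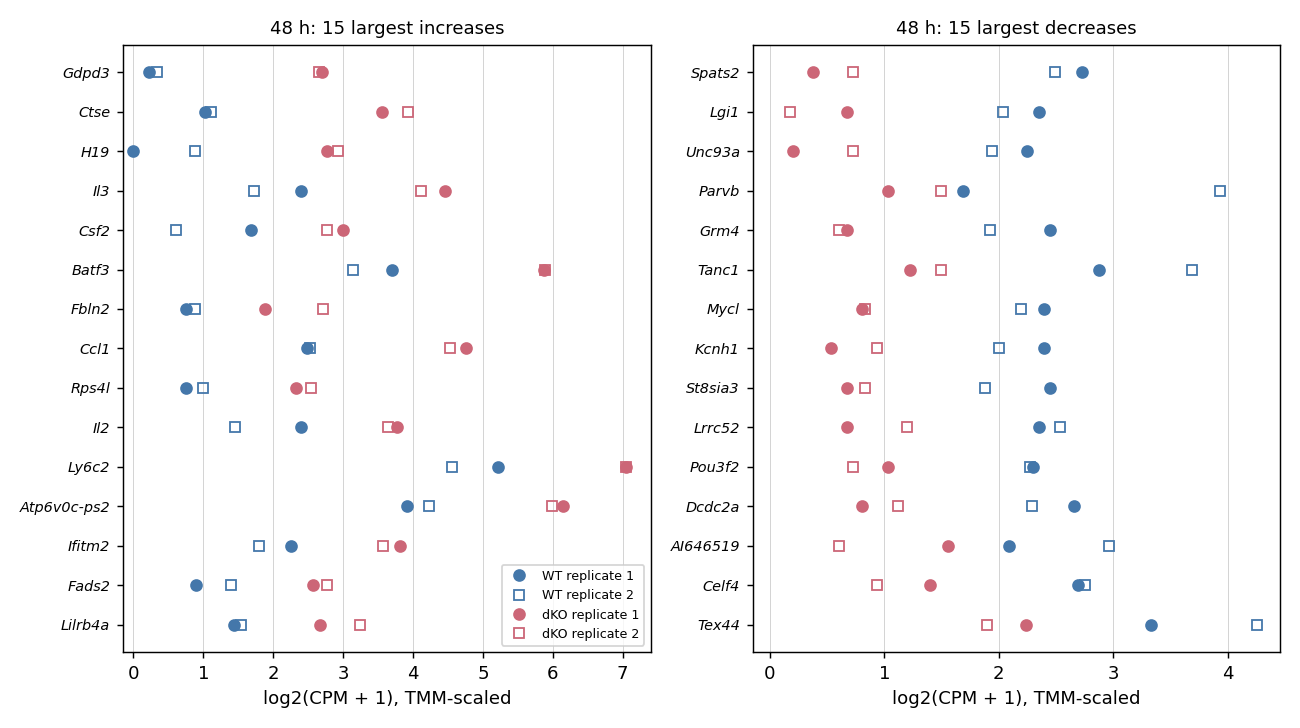
Level in each of the 4 libraries at 48 h, as log2(CPM + 1) (horizontal), for the 15 genes with the largest rise (left) and the 15 with the largest fall (right) that have a gene name of their own. Blue marks are WT and red marks dKO, filled circles are replicate 1 and open squares replicate 2. Batf3 and Ly6c2 reach 58 and 131 CPM in dKO, while most genes on the right stay under 6 CPM in WT.

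Other genes with the largest rises come from several families. Gdpd3, which encodes a lysophospholipase D, stood at 0.17 and 0.26 CPM in WT and at 5.51 and 5.33 CPM in dKO (log2 4.42, SE 0.408, adjusted p = 0.00195). Ctse, which encodes the endosomal protease cathepsin E, stood at 1.02 and 1.16 CPM against 10.7 and 14.2 CPM (log2 3.46, SE 0.29, adjusted p = 0.000608). The imprinted RNA H19 was at 0 counts in WT replicate 1, at 0.84 CPM in replicate 2 and at 5.81 and 6.63 CPM in dKO. Lilrb4a, an inhibitory receptor of the immunoglobulin family, stood at 1.71 and 1.90 CPM against 5.36 and 8.45 CPM, and the interferon-induced gene Ifitm2 at 3.76 and 2.48 CPM against 13.1 and 10.9 CPM. Fbln2, which encodes an extracellular matrix protein, and Fads2, a fatty acid desaturase, rose from few counts (log2 2.37 and 1.96). Omitting dKO 48 h replicate 2 gave 1.73 for Fbln2, and omitting WT 48 h replicate 2 gave 2.64 for Fads2. Atp6v0c-ps2 and Rps4l have close copies elsewhere in the genome, and how the counting split reads among such copies is unknown here, so their log2 values of 2.04 and 2.27 are uncertain. The same holds for the predicted gene Gm5779, whose log2 difference of 6.95 was the largest among the genes that rose.

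Of 6 eligible Ly6 antigen genes 2 rose. Ly6c2, a surface antigen of memory and effector CD8+ T cells, stood at 36.0 and 22.5 CPM in WT and at 131 and 132 CPM in dKO (log2 2.19, SE 0.215, adjusted p = 0.00148). Its close copy Ly6c1 stood at 14.5 and 10.7 CPM against 46.15 and 45.2 CPM (log2 1.89, SE 0.181, adjusted p = 0.00134). Both were called in all 16 alternatives, but reads can be split between the pair. With WT 48 h replicate 1 omitted, 4 members of the list rose.

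Receptors moved both ways. Of 13 eligible costimulatory receptor genes 3 rose and 0 fell. Cd82, a tetraspanin, stood at 72.1 and 59.7 CPM in WT and 119 and 131 CPM in dKO (log2 0.92, adjusted p = 0.0147). Tnfrsf4, which encodes OX40, stood at 50.2 and 41.7 CPM against 78.3 and 75.0 CPM (log2 0.75, adjusted p = 0.0162). Cd2, the receptor of CD48 in mice, stood at 136 and 109.5 CPM against 179.8 and 180.5 CPM (log2 0.56, adjusted p = 0.0435). The list's median was 0.0062, near that of all eligible genes. None of the 3 passed with either dKO library of 48 h omitted, and 6 rose and 3 fell with WT 48 h replicate 1 omitted.

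Of 17 eligible inhibitory receptor and B7 ligand genes 0 rose and 3 fell, in a list that does not hold Lilrb4a, which rose as given above. Nt5e, which encodes CD73, the enzyme that makes adenosine outside the cell, stood at 13.7 and 16.2 CPM in WT and at 4.47 and 5.07 CPM in dKO (log2 -1.66, SE 0.236, adjusted p = 0.0135). Tigit stood at 59.6 and 51.6 CPM against 28.4 and 38.1 CPM (log2 -0.73, adjusted p = 0.0315). Pdcd1, which encodes PD-1 and lies on chromosome 1, stood at 104.7 and 119 CPM against 75.8 and 67.95 CPM (log2 -0.64, SE 0.145, adjusted p = 0.0231). Scaled by library size alone, 2 of the list rose and 1 fell. None passed with either dKO library of 48 h omitted, 1 fell with either dKO library of 24 h omitted, and 5 rose and 4 fell with WT 48 h replicate 1 omitted. Havcr2, Lag3 and Ctla4, which encode TIM-3, LAG-3 and CTLA-4, were not called. Their log2 differences were -0.72, -0.29 and 0.23, with adjusted p = 0.258, 0.175 and 0.455, and Havcr2 was at 0.058 with WT 48 h replicate 2 omitted.

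Among homing genes, Klf2, a factor that keeps naive T cells quiescent and recirculating, stood at 10.1 and 12.01 CPM in WT and at 4.17 and 4.16 CPM in dKO (log2 -1.42, SE 0.249, adjusted p = 0.0147). It did not pass with either dKO library of 48 h omitted, where the highest adjusted p was 0.191. Ccr7, a receptor that guides T cells into lymph nodes, was at 75.2 and 83.5 CPM against 77.3 and 86.4 CPM and was not called (0.042, adjusted p = 0.856). Ccr2, a receptor of inflammatory chemokines, was called higher (log2 2.11, adjusted p = 0.016) but had a mean of only 19.25 counts.

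Of 26 eligible cytokine receptor genes 2 rose (7.69%) and 4 fell (15.4%), against 3.46% and 8.32% of all eligible genes. Il6ra, the alpha chain of the IL-6 receptor, stood at 10.9 and 15.3 CPM in WT and at 3.13 and 4.42 CPM in dKO (log2 -1.81, SE 0.255, adjusted p = 0.0126). Il6st, its signalling partner gp130, stood at 10.6 and 19.01 CPM against 6.70 and 7.795 CPM (log2 -1.07, adjusted p = 0.036). Tgfbr1 and Il12rb2, chains of the TGF-beta and IL-12 receptors, fell (log2 -0.77 and -0.88). Il21r and Ifnar2, chains of the IL-21 and type I interferon receptors, rose by 0.66 and 0.55. Il7r, the receptor of naive and memory cells, was not called (-0.19, adjusted p = 0.458). None of the 6 passed with either dKO library of 48 h omitted. Omitting WT 48 h replicate 1 gave 4 that rose and 8 that fell, omitting replicate 2 or either WT library of 24 h gave 1 and 1, and omitting either dKO library of 24 h gave 0 and 1. Scaled by library size alone, 5 rose and 3 fell.

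Of 9 eligible granzyme, perforin and granule protein genes 0 rose and 0 fell. With DESeq2, or with either WT library of 24 h omitted, 1 rose, with scaling by library size alone 5 did, and with WT 48 h replicate 1 omitted 6 rose and 1 fell. Gzmb, which encodes granzyme B, was at 2232 and 2298 CPM in WT and at 3170 and 3321 CPM in dKO (log2 0.52, SE 0.179, adjusted p = 0.0845), and Prf1, which encodes perforin, at 19.7 and 24.7 against 16.1 and 20.5 CPM (-0.29, adjusted p = 0.319). Gzmc was called higher with a mean of only 11.5 counts, at 0.17 and 0.32 against 2.53 and 2.86 CPM. Of 5 eligible serpin genes 2 rose. Serpinb9, an inhibitor of granzyme B, stood at 36.2 and 39.9 CPM against 62.5 and 66.65 CPM (log2 0.76, adjusted p = 0.0174), and Serpinb6b at 38.6 and 27.5 CPM against 61.8 and 63.0 CPM (log2 0.93, adjusted p = 0.0176). Neither passed with either dKO library of 48 h omitted, 1 serpin rose with dKO 24 h replicate 2 omitted, and 3 did with WT 48 h replicate 1 omitted.

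Transcription factors of early activation rose in part. Of 30 eligible AP-1, BATF, EGR, NFAT and early response genes 6 rose and 1, Mafg, fell. Batf3, which encodes a BATF family partner of JUN proteins, stood at 11.96 and 7.85 CPM in WT and at 57.8 and 58.2 CPM in dKO (log2 2.60, SE 0.318, adjusted p = 0.008). Junb stood at 67.8 and 52.0 CPM against 92.7 and 103 CPM (log2 0.72, adjusted p = 0.0218), and Batf at 23.75 and 18.3 CPM against 34.8 and 33.3 CPM (log2 0.71, adjusted p = 0.0282). Ier2, Jund and Atf3 rose by 0.61, 0.59 and 0.78. None of the 7 passed with either dKO library of 48 h omitted. The count that rose was 3 with either WT library of 24 h omitted and 1 with either dKO library of 24 h omitted, and 10 rose and 9 fell with WT 48 h replicate 1 omitted. Egr1 and Egr2, direct targets of T cell receptor signals, were not called (log2 0.0062 and -0.12).

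Of 18 eligible stem-like, naive and memory factors 0 rose and 3 fell, with a median of -0.35. Bach2, a repressor that holds back effector differentiation, stood at 55.35 and 93.5 CPM in WT and at 38.6 and 30.8 CPM in dKO (log2 -1.12, SE 0.232, adjusted p = 0.0174). Klf3 and Ikzf2 fell (log2 -0.84 each). Tcf7, which encodes the stem-like factor TCF1, was at 63.4 and 64.3 against 54.5 and 51.6 CPM and was not called (-0.27, adjusted p = 0.2), and Lef1 and Slamf6 were not called either (0.028 and 0.15). None passed with either dKO library of 48 h omitted. The count that fell was 2 with either WT library of 24 h omitted, 1 and 0 with the first or second dKO library of 24 h omitted, and 11, beside 1 that rose, with WT 48 h replicate 1 omitted.

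Of 13 eligible effector and exhaustion factors 1 rose and 2 fell. Id2, an inhibitor of E proteins that effector cells use, stood at 26.8 and 20.5 CPM in WT and at 40.8 and 44.8 CPM in dKO (log2 0.87, adjusted p = 0.0174). Tox, which encodes a factor of exhausted T cells, stood at 15.2 and 15.2 CPM against 8.485 and 8.31 CPM (log2 -0.86, SE 0.167, adjusted p = 0.0162). Hif1a, the hypoxia factor, fell as well (log2 -0.52, adjusted p = 0.0468). Eomes was at 17.1 and 22.9 against 34.8 and 34.8 CPM (0.78, adjusted p = 0.061), and Tbx21, which encodes T-bet, was at 26.7 and 25.6 against 27.8 and 24.4 CPM. With DESeq2 none fell, with scaling by library size alone 2 rose and 1 fell, and none passed with either dKO library of 48 h omitted. When WT 48 h replicate 1 was omitted 1 rose and 5 fell, with replicate 2 omitted 2 rose and 2 fell, and with any 1 of the 24 h libraries omitted 1 rose and 1 fell.

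Survival genes rose in part. Of 32 eligible p53 target and survival genes 7 rose and 1 fell. Gadd45g, a stress sensor that p53 and cytokines induce, stood at 27.0 and 21.6 CPM in WT and at 71.8 and 82.9 CPM in dKO (log2 1.69, SE 0.184, adjusted p = 0.00314). Cdkn1a, the cell cycle inhibitor p21, stood at 47.15 and 44.4 CPM against 70.6 and 64.3 CPM (log2 0.56, adjusted p = 0.0276). Bcl2l1, the gene of BCL-XL, which protects from apoptosis, stood at 47.5 and 40.4 CPM against 69.2 and 70.3 CPM (log2 0.67, adjusted p = 0.017), and the death gene Bax rose by 0.55. Bcl2a1a, Bcl2a1b and Bcl2a1d, near-identical copies of 1 survival gene among which reads can be split, rose by 1.20, 0.88 and 1.21. Trp53inp1 fell (log2 -0.87). Gadd45g alone passed with dKO 48 h replicate 1 omitted and none did with replicate 2 omitted, while 15 rose and 6 fell with WT 48 h replicate 1 omitted. The count that rose was 2 with either WT library of 24 h omitted and 1 with either dKO library of 24 h omitted.

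Feedback regulators were split, with 4 that rose (10%) and 3 that fell (7.5%) among 40, against 3.46% and 8.32% of all eligible genes. Nfkbia, which encodes the inhibitor of NF-kB, stood at 53.7 and 34.6 CPM in WT and 81.3 and 84.6 CPM in dKO (log2 0.93, adjusted p = 0.0175), and Socs1, the inhibitor of JAK kinases, at 50.4 and 43.2 CPM against 74.4 and 68.9 CPM (log2 0.62, adjusted p = 0.0373). The ERK phosphatase genes Dusp2 and Dusp14 rose by 0.54 and 1.24. Ubash3b, a phosphatase that damps receptor signals, stood at 46.1 and 52.8 CPM against 28.6 and 28.5 CPM (log2 -0.80, adjusted p = 0.0147), and Zfp36l1 and Pag1 fell too (log2 -0.62 and -1.10, with Pag1 at -0.48 and not called when WT 48 h replicate 2 was omitted). None passed with either dKO library of 48 h omitted. Omitting WT 48 h replicate 1 left 7 that rose and 9 that fell, with replicate 2 omitted 2 and 5, with either WT library of 24 h omitted 1 and 2, and with either dKO library of 24 h omitted 0 and 1. Of 19 eligible proximal T cell receptor genes 0 rose and 0 fell, with a median of 0.0079. With DESeq2 1 of these rose and 1 fell, with scaling by library size alone 4 rose and 0 fell, and with WT 48 h replicate 1 omitted 7 rose and 5 fell.

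Among lists of growth and metabolism, ribosome biogenesis had 6 that rose (11.8%) and 0 that fell of 51, at a median of 0.20. Of all eligible genes 3.46% rose and 8.32% fell. Rrp9, a part of the small nucleolar complexes, stood at 78.6 and 56.3 CPM in WT and 117 and 132 CPM in dKO (log2 0.90, adjusted p = 0.017). Oxidative phosphorylation had 7 that rose (7.95%) and 2 that fell (2.27%) of 88, at a median of 0.30. Sdhc, a subunit of complex II, stood at 66.3 and 48.1 CPM against 94.7 and 102 CPM (log2 0.79, adjusted p = 0.018). Cox7b2 and Ndufa4l2, which fell (log2 -1.10 and -1.36), are known from testis and hypoxia and not as usual subunits. Of 80 eligible ribosomal protein genes 1 rose and 1 fell, with a median of 0.32, and both, Rps4l and Rpl10l, are copies of other ribosomal protein genes. Rpl10l, which fell, was also in proportion to the olfactory receptor counts. With scaling by library size alone 16, 31 and 17 genes of these lists rose, and with DESeq2 6, 8 and 9. The counts that rose in the 3 lists, in this order, were 20, 67 and 70 with WT 48 h replicate 1 omitted and 5, 1 and 1 with replicate 2 omitted. They were 0 in each list with either dKO library of 48 h omitted, 0, 0 and 1 with either dKO library of 24 h omitted, and 3, 1 and 3 or 2, 1 and 3 with the first or second WT library of 24 h omitted. Oxidative phosphorylation genes that fell numbered 1 with WT 48 h replicate 2 or any 1 library of 24 h omitted, and 0 with either dKO library of 48 h omitted.

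Of 49 eligible G2 and mitosis genes 0 rose and 0 fell, with a median of -0.011. Scaling by library size alone gave 10 that rose, and omitting WT 48 h replicate 1 gave 14 that rose and 11 that fell. Of 39 S phase genes 2 rose, Rfc3 and Tk1, which encode a clamp loader subunit and thymidine kinase, by 0.94 and 0.57, and 2 fell, Cdt1 and Ccne1. These are 5.13% in each direction, against 3.46% that rose and 8.32% that fell of all eligible genes. Omitting WT 48 h replicate 1 gave 15 S phase genes that rose and 9 that fell, omitting either dKO library of 48 h gave 0, and omitting any 1 of the other libraries gave 1 that rose. Of 34 glycolysis and hypoxia genes 0 rose and 2 fell (5.88%, against 8.32% of all eligible genes). The 2 were Pfkfb3, an activator of glycolysis, at 63.4 and 98.8 CPM against 36.9 and 35.5 CPM (log2 -1.17, adjusted p = 0.0147), and the muscle enolase Eno3 (-0.68). Neither passed with either dKO library of 48 h omitted, 1 fell with either dKO library of 24 h omitted, and 8 fell with WT 48 h replicate 1 omitted.

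**Figure D4:**
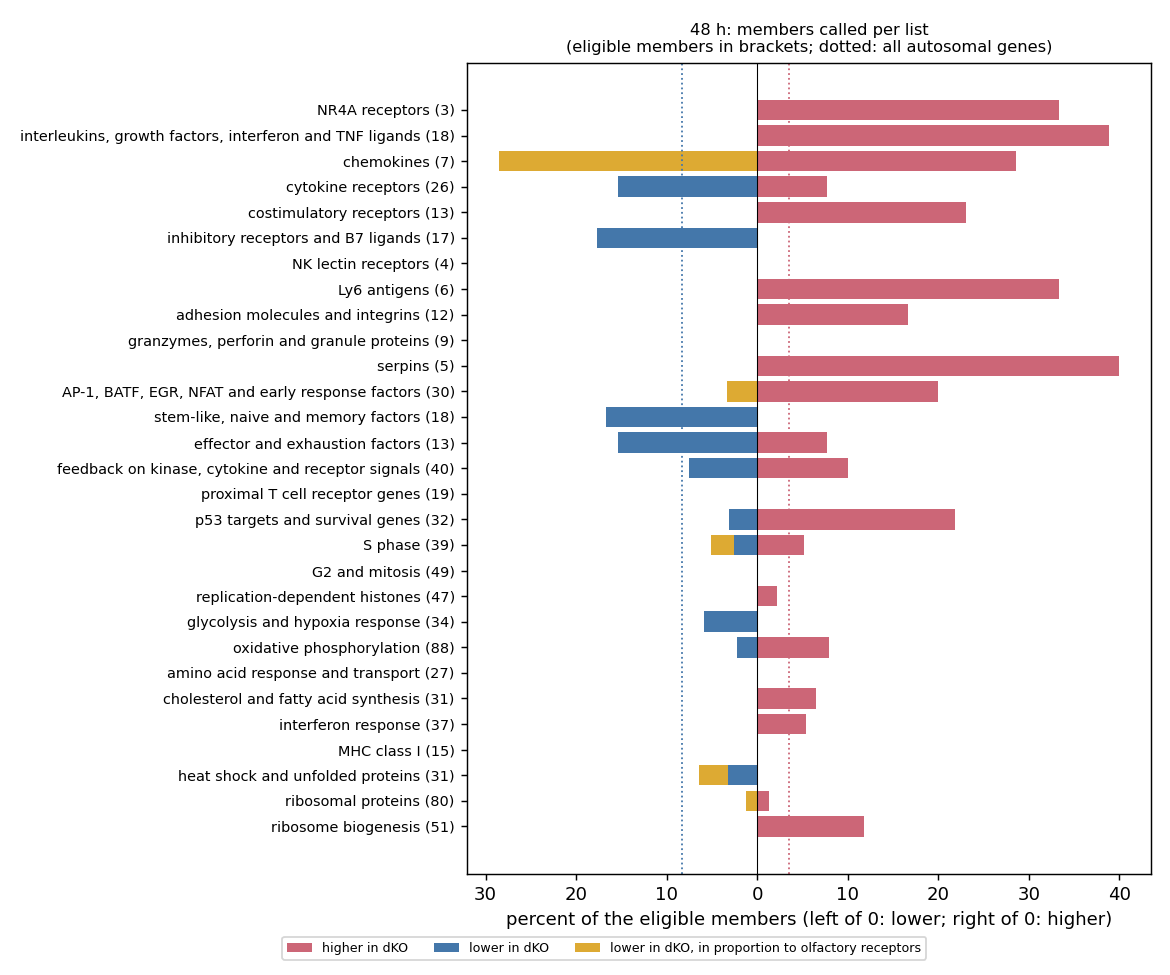
Percent of the eligible members of each list that rose (red, to the right of 0) or fell (blue, to the left, with members in proportion to olfactory receptor counts in yellow) at 48 h. Dotted lines mark the share of all eligible genes, 3.46% and 8.32%, and the number of eligible members is in brackets. Interleukins and TNF ligands have the longest bar to the right among lists of more than 5 members.

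The remaining lists follow. Cholesterol and fatty acid synthesis had 2 that rose of 31, Fads2 and Fdps. Interferon response had 2 of 37, the immunoproteasome genes Psmb8 and Psmb9, which rose by 0.55 and 0.63 with adjusted p = 0.0498 and 0.0499. The list leaned the other way, with a median of -0.20 over the 37. Of its 44 tested members, 12 had a log2 difference above 0. Adhesion molecules had 2 of 12, Cd24a and Icam1, which rose by 1.30 and 0.59, in a list with a median of -0.14. Heat shock and unfolded protein genes had 2 that fell of 31, Pdia4 and the stress sensor gene Atf6 (log2 -1.08 and -1.23), and histones had 1 that rose of 47, Hist1h4i. The heat shock share that fell, 6.45%, and the histone share that rose, 2.13%, were below the 8.32% and 3.46% of all eligible genes. Of 27 amino acid response, 15 MHC class I and 4 NK lectin receptor genes 0 rose and 0 fell. Scaling by library size alone gave 5, 5 and 0 that rose in these 3 lists, and with DESeq2 1 amino acid response gene rose. Omitting WT 48 h replicate 1 gave 13, 6 and 0 that rose and 5, 2 and 1 that fell, and omitting replicate 2 gave 1, 0 and 3 that fell. None of these lists had a member that rose or fell with either dKO library of 48 h omitted. When WT 48 h replicate 1 was omitted, the genes that rose and fell were 7 and 5 for cholesterol and fatty acid synthesis, 6 and 14 for interferon response, 3 and 6 for adhesion, 12 and 4 for heat shock and 15 and 1 for histones. When replicate 2 was omitted, 1 interferon gene rose, 1 heat shock gene and 9 histone genes fell, and 0 histone genes rose. Any 1 library of 24 h omitted left 1 cholesterol and fatty acid and 1 adhesion gene that rose and no histone gene, and for interferon and heat shock genes 1 each (WT libraries) or 0 (dKO libraries). With scaling by library size alone, 6 heat shock genes rose and 2 fell.

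The following sums are of markers of other cells. The summed B cell markers were 3.56 to 4.61 CPM in WT and 4.03 to 4.93 CPM in dKO, with 3 of 6 at 0 counts in all 4 libraries. Summed myeloid markers were 14.96 to 15.1 CPM in WT and 8.97 to 9.35 CPM in dKO, with 3 of 11 at 0, and most of that sum was Cd14, which fell (log2 -1.22). Fcgr3, also a myeloid marker, had 0 counts in both WT libraries and 15 and 12 in dKO, and was called higher with a mean of 6.75 counts. CD4 and regulatory T cell markers summed to 30.9 to 37.6 CPM in WT and 22.4 to 22.6 CPM in dKO, mostly Ikzf2. NK cell markers summed to 15.7 to 21.5 CPM and 34.4 CPM, nearly all Eomes, which CD8+ T cells express too, with Ncr1 and Klra8 at 0. This sum held 5 genes, Ncr1, Klrb1c, Klra8, Eomes and Tyrobp, and no gamma delta T cell receptor gene, so gamma delta T cells were not checked. Red cell, platelet and stromal markers summed to 15.96 to 19.1 CPM and 14.8 to 14.9 CPM, with 5 of 14 at 0. The part of other cells in the results above was not tested.

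Genes near the floxed loci were counted apart. Within 10 Mb of Nr4a1 on chromosome 15, 12.1% of 99 eligible genes changed, 2 up and 10 down, against 11.8% of all eligible genes. One of the 10 was Spats2, 2.13 Mb away, which stood at 5.64 and 4.63 CPM in WT and at 0.30 and 0.65 CPM in dKO (log2 -3.34, SE 0.489, adjusted p = 0.0136; -4.03 with dKO 48 h replicate 2 omitted). Within 10 Mb of Nr4a2 on chromosome 2, 7.5% of 40 changed, namely Nr4a2 and Mmadhc, which rose, and Tanc1, which fell (log2 -2.57; -1.97 with WT 48 h replicate 2 omitted).

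At 24 h, where 55 of 12742 genes were called (0.432%), 48 of them autosomal, most of the genes that rose at 48 h leaned the same way. Of the 372, 315 had the same sign at 24 h and 32 were called in that direction. Of the 895 that fell, 795 had the same sign and 5 were called. Among them, 307 of the 310 in proportion had the same sign, and the choice of these genes used their levels at 24 h too. Of the other 585 that fell, 488 had the same sign. The share of all eligible genes with the same sign at both times was not counted. Il3, Ccl1, Il2, Ccl9, Ly6c2, Ctse and Gadd45g were among the genes called at both times, with log2 differences at 24 h of 4.29, 3.56, 2.94, 2.51, 1.83, 2.79 and 1.85. Batf3 had 2.03 at 24 h without passing (adjusted p = 0.204). Nt5e fell at 24 h too (-1.47, adjusted p = 0.0145), as did Spats2 (-3.22, adjusted p = 0.0167). Pdcd1, Tgfbr1 and Ikzf2 stood at 0.34, 0.10 and 0.32 at 24 h, on the other side of 0 from 48 h, and Socs1, Cd2 and Psmb8 at -0.21, -0.18 and -0.24. None of these 6 passed at 24 h.

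The test of the difference between the 48 h and the 24 h effect called 0 genes of 12742 (0%) in edgeR, with 1575 at an unadjusted p below 0.05, and 0 in DESeq2. No gene is thus shown to differ between the times, Pdcd1 included (interaction -0.98, unadjusted p = 0.000767, adjusted p = 0.369). The adjusted interaction p of Il3, Ccl1 and Cdkn1a, whose interaction effects (48 h minus 24 h) were -1.65, -1.21 and -1.04, was 0.369 as well. With WT 48 h replicate 1 omitted 3255 autosomal genes were called in this test, with replicate 2 omitted 21, and with WT 24 h replicate 1 omitted 133. The count of 48 at 24 h became 8 and 7 when 1 WT library of 24 h was omitted, 12 and 20 for dKO at 24 h, 341 and 344 for WT at 48 h, and 25 for either dKO library at 48 h.

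**Figure D5:**
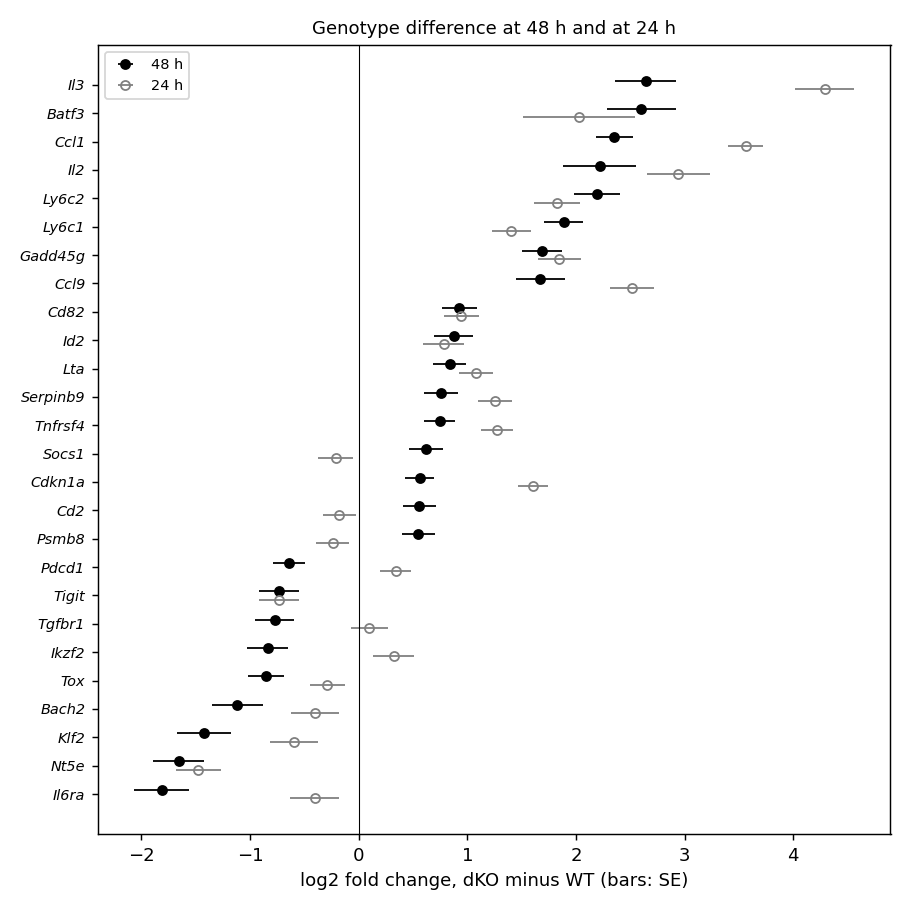
Log2 fold change (dKO minus WT, horizontal, bars are the SE from edgeR) at 48 h (filled) and at 24 h (open) for 26 T cell genes that changed at 48 h. Il3, Ccl1 and Cdkn1a lie further right at 24 h, as do others such as Il2 and Ccl9. Some, such as Batf3 and Ly6c2, lie further right at 48 h. Pdcd1, Tgfbr1 and Ikzf2 lie to the left of 0 at 48 h only.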

How the data were processed

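The deposited table gives raw counts for each gene symbol. The submitters' processing notes name cutadapt 1.18, Bowtie2 2.2.5 and the build mm10. Counter, annotation, strand rule and molecular identifiers: not given in the sources used here. So antisense or overlapping genes can share reads. The table holds 24976 symbols in 8 library columns, with 0 other columns. An unnamed entry that equals the column total (50.0% of each column sum) was left out. GENCODE M21 and RefSeq (GRCm38.p6) placed 23540 symbols.

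The model had 4 group means over the 8 libraries, fitted in edgeR 4.0.16 (R 4.3.3) with filterByExpr (minimum count 10), TMM scaling and the two-sided quasi-likelihood F test. CPM of single genes is TMM-scaled, and CPM of sums, Xist and markers is over total counts. SE was taken from the fold change and the F value. Alternatives were DESeq2 1.42.0, other filters and scalings, fewer samples, a replicate block and each library left out. The fit was tested on simulated data with the same gene proportions in all groups, apart from chosen genes changed in dKO at 48 h. That simulation did not hold the joint shift of the genes in proportion, so it cannot speak to calls that depend on it.

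The members, lists and named genes were chosen with earlier results of these data known. Named are Nr4a1, Nr4a2, Nr4a3, Tcf7 and 12 T cell genes always, the 15 largest changes in each direction without predicted genes, up to 4 members per list and direction by smallest p, and 2 genes on each side of 20 counts. Others were named after their values were seen. Some single genes are left out of the text.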

Additional observations from a re-analysis of the deposited data

How the results depend on the processing

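Counts of genes that rose, fell, were called in the interaction and were called at 24 h were 372, 895, 0 and 48. With no low-count filter they were 837, 1386, 152 and 188. Scaling by library size alone gave 1527 that rose, a mean of at least 50 counts 228, the 48 h libraries alone 34 and 372 that fell, and leaving out the genes in proportion to olfactory receptors 222 and 430. Leaving out 1 library gave 8 to 2879 that rose, 0 to 2974 that fell, 0 to 3255 interaction calls and 7 to 344 calls at 24 h. DESeq2 (343 and 688) and autosomal genes alone (373 and 923) stayed within 1.5 times. Similar totals did not mean the same genes: with DESeq2, 256 of those that rose were among the 372. Of those that fell with DESeq2, 637 were among the 895. For autosomal genes alone the shared genes were 362 and 895. The cause of these shifts was not tested, except that fewer samples or genes entered by construction.

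With a replicate block 167 rose (156 of them among the 372) and 734 fell. The correlation of replicate differences was -0.0641 between WT and dKO at 48 h and -0.076 to 0.172 over the 6 pairs of groups, where dKO at 24 h with WT at 48 h was highest. Not every pair was above 0.1, so the numbers were not taken to pair the libraries.

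Among the 121 genes of the named set, signs turned for 5, none called in the main result. Other genes were not checked for a turn of sign. With 1 library omitted, log2 differences ran from -0.88 to 0.28 for Nr4a3, -1.14 to 0.058 for Havcr2, -0.23 to 0.54 for Slamf6, -0.066 to 0.57 for Ctla4 and -0.050 to 0.13 for the gene Ccr7, which was at -0.014 with a mean of at least 50 counts. In each of the first 4 the sign turned with WT 48 h replicate 2 omitted. Low depth limits genes near 20 counts.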
